A study of Mus musculus with 6 samples.

Results

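The genes of de novo lipogenesis, the synthesis of fatty acids from acetyl-CoA, were examined in mouse liver RNA-seq. They were the 10 genes Srebf1, Mlxipl, Acly, Acaca, Acacb, Fasn, Elovl6, Scd1, Me1 and Gpam, chosen by name, and all 10 were found by symbol among the 55491 genes listed. The livers came from 3 Chrna2fl/fl;AlbCre mice (mutant livers a, b and c), which carry Cre under the albumin promoter and so recombine floxed Chrna2 in hepatocytes, and from 3 floxed Chrna2fl/fl mice without Cre (control livers a, b and c). Chrna2 encodes the alpha2 subunit of the nicotinic acetylcholine receptor. Both genotypes carried the floxed allele. Per the study's methods, both were 7 to 10 weeks old when an HFD with 60% of calories from fat was started, were fed it for 4 weeks, and received CCl4, a hepatotoxin, at 0.5 μl per g of body weight 2 times per week in weeks 3 and 4. No liver on chow or without CCl4 was analysed here, so the values compare genotypes within 1 diet and toxin regimen and not the response to that regimen. The question put to the data was whether transcripts of the lipogenic program differed between livers with and without hepatocyte Chrna2.

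In this pathway, citrate leaves the mitochondrion and is split to cytosolic acetyl-CoA by ATP citrate lyase (Acly). Acetyl-CoA carboxylases (Acaca and Acacb) make malonyl-CoA, fatty acid synthase (Fasn) builds palmitate from it with NADPH that malic enzyme (Me1) and the pentose phosphate pathway supply, and Elovl6 and Scd1 elongate and desaturate the product. Gpam then esterifies acyl-CoA to glycerol-3-phosphate, the entry into triglyceride synthesis. The transcription factors SREBP-1 (from Srebf1), which acts downstream of insulin, and ChREBP (from Mlxipl), which acts downstream of glucose, induce these enzymes in liver.

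The promoters of the 2 transcription factors and of Fasn, one of their best known shared target genes, are shown to place the letters that factors of this pathway read. RefSeq windows of 300 bases (250 before the start site and 50 from it on, GRCm38.p6) were at hand for 9 of the 10 genes, 14 windows in all. The letters searched on both strands were TCACNCCAC (a sterol regulatory element, the kind of site SREBPs read), CACGTG (the E-box core), CCAAT (the NF-Y site) and GGGCGG (the GC box read by Sp1). Each sequence below is the 150 bases before a start site, 5′ to 3′ on the gene's strand, with every match on either strand in capitals.
Srebf1, chr11:60210472-60210621, minus strand: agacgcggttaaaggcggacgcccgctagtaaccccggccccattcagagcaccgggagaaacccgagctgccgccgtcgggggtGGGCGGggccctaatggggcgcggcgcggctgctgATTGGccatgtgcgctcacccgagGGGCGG
Mlxipl, chr5:135089740-135089889, plus strand: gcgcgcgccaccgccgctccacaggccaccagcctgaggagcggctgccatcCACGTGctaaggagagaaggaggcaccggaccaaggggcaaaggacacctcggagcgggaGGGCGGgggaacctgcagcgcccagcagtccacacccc
Mlxipl, chr5:135106741-135106890, plus strand: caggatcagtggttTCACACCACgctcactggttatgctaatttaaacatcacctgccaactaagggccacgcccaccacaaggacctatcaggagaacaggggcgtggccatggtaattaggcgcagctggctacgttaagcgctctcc
Fasn, chr11:120824548-120824697, minus strand: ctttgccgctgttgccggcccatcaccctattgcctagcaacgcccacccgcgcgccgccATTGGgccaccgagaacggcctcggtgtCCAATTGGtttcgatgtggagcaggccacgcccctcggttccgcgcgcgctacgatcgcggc
Srebf1 has 3 windows, and the one shown, before a start site inside the gene, is the 1 of them with both CCAAT and GC box matches. It holds 2 GC boxes and a CCAAT match between them that begins 30 bases before the start site. In the first Mlxipl sequence the E-box begins 98 bases and a GC box 38 bases before the start. The second Mlxipl sequence, before a start site inside the gene, holds the 1 match to the letters TCACNCCAC, 136 bases before the start. Fasn has 3 CCAAT matches at 90, 62 and 59 bases before its start, and the last 2 overlap in 1 palindrome. Over the 14 windows, the letters TCACNCCAC were in 1, against 1.24% of 32851 windows of all genes, and the E-box in 1, against 7.15%. CCAAT was in 8, against 37.4%, and the GC box in 6, against 35.7%. A match is a match of letters and was not tested for binding. Sites that differ from the searched letters were not counted, so a sequence without a match can still hold such a site.

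Chrna2 (GRCm38 chromosome 14, 66135039 to 66152948) had 0.36, 0.03 and 0.32 FPKM in the mutant livers, against 1.24, 1.20 and 2.64 FPKM in the controls. FPKM counts fragments relative to transcript length and to the fragments sequenced, so levels of different genes can be compared. Transcript of the Cre transgene had 3.31, 2.76 and 4.34 FPKM in mutant livers and was listed at 0 in every control liver. Both followed the labels. Hepatocyte transcripts (Alb, Ttr, Apoa1, Fgb, Ahsg, Apob, Serpina1a and Cps1) summed to 64260 to 79530 FPKM in mutant livers and 58720 to 87950 FPKM in control livers. Alb was the largest part of each sum, at 24361.21 to 33814.81 FPKM in mutant livers and 25513.94 to 46354.12 FPKM in control livers. In 1 of the 8, Ahsg, every mutant liver was above every control liver, against 18.7% of all genes tested, and in none below, against 4.34%. Depth, inferred from the spacing of small FPKM values, was 8.98 to 9.25 M fragments in mutant libraries and 16.94 to 17.62 M fragments in control libraries. Since the genotypes shared no depth, genotype and any batch of sequencing cannot be told apart. At these depths 1 fragment on a 1-kb transcript is 0.108 to 0.111 FPKM in mutant libraries and 0.057 to 0.059 FPKM in control libraries, well under the lowest value of any of the 10 genes, 3.06 FPKM.

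Transcripts of the lipogenic program did not separate the genotypes in these livers. None of the 10 genes passed an adjusted p under 0.05 in either direction (limma on log2(FPKM + 0.1) with Benjamini-Hochberg adjustment over the 13943 genes that averaged 0.5 FPKM or more), where over all genes 0% were called higher and 0% lower. The smallest adjusted p of any gene was 0.0522, that of the Cre transgene, so a lack of calls says little of any 1 gene. No lipogenic gene had a p under 0.05 before adjustment, against 13.2% of genes higher and 3.02% lower in mutant livers at that level. For none of the 10 did all 3 mutant livers lie above all 3 control livers, against 18.7% of all genes tested, or all lie below, against 4.34%. Their median log2 fold change (mutant over control) was 0.066, and that of all genes tested was 0.19, with 70.3% of genes above 0. Relative to all genes the median of the 10 was therefore -0.12. Fold changes here are on the log2(FPKM + 0.1) scale, and with 3 livers against 3 the smallest two-sided exact permutation p is 0.1.

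**Figure D1:**
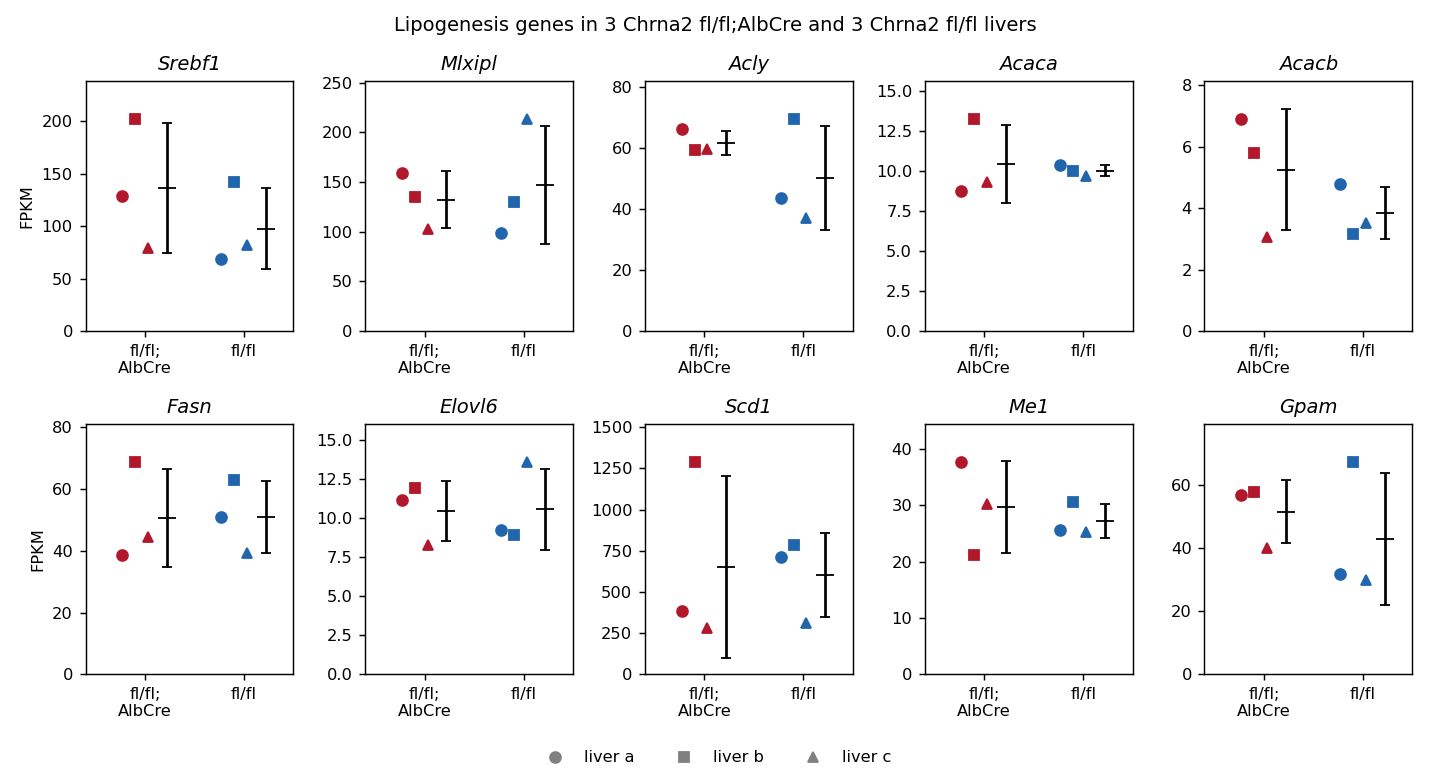
FPKM of the 10 lipogenesis genes in each liver, with Chrna2fl/fl;AlbCre livers on the left (red) and Chrna2fl/fl livers on the right (blue) of each panel, each on its own axis from 0; circles, squares and triangles are livers a, b and c, and black bars are mean ± SD (n = 3). The genotypes overlap in every panel, and the widest spread is that of Scd1, between 284.09 and 1285.76 FPKM.

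Srebf1 (chromosome 11, 60199089 to 60222581) had 128.63, 202.13 and 79.48 FPKM in mutant livers, against 69.03, 142.35 and 82.33 FPKM in control livers. Livers b of both genotypes and mutant liver a were high and the other 3 low, and the ranges overlapped over most of their length. Its log2 fold change was 0.45 (95% interval -0.45 to 1.36, adjusted p = 0.553 from limma), that is 1.37-fold with an interval of 0.730 to 2.56. It was 0.12 without mutant liver b and 0.79 without mutant liver c, so single livers set its size. Gene-level FPKM does not tell the SREBP-1a transcript from the SREBP-1c transcript, which start at different promoters.

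Mlxipl (chromosome 5, 135089890 to 135138382), the gene of ChREBP, was at 159.52, 134.76 and 102.32 FPKM in mutant livers and 98.53, 130.22 and 213.23 FPKM in control livers. The lowest and the highest liver were both controls, so every mutant value lay inside the control range. The log2 fold change was -0.10 (-0.80 to 0.59, adjusted p = 0.863 from limma). Gene-level FPKM does not tell apart transcripts from the 2 Mlxipl start sites shown above. The ratio of Srebf1 to Mlxipl within a library, which no scaling of libraries changes, was 0.806, 1.5 and 0.777 in mutant livers and 0.701, 1.09 and 0.386 in control livers. It differed by 0.56 on the log2 scale (two-sided exact permutation p = 0.4, adjusted p = 1 over the 5 ratios compared).

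Acly (chromosome 11, 100476353 to 100528000), which makes cytosolic acetyl-CoA, was at 66.30, 59.24 and 59.55 FPKM in mutant livers, against 43.77, 69.46 and 37.09 FPKM in control livers. The mutant livers were close together (CV 6.47%) and above control livers a and c, while control liver b was the highest of all 6 (CV of control livers 34.1%). The log2 fold change was 0.35 (-0.19 to 0.89, adjusted p = 0.455 from limma), the smallest adjusted p of the 10 genes. Gpam (chromosome 19, 55067268 to 55127238), the mitochondrial glycerol-3-phosphate acyltransferase, had the same arrangement. It was at 56.80, 57.70 and 39.99 FPKM in mutant livers and 31.67, 67.14 and 29.86 FPKM in control livers, with a log2 fold change of 0.35 (-0.42 to 1.11, adjusted p = 0.588 from limma). Without control liver b, Acly and Gpam were the 2 of the 10 genes with every mutant liver above every control liver, in a comparison in which 36.4% of all genes were so placed. That share makes the arrangement a common one in these libraries.

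Both acetyl-CoA carboxylases overlapped. Acaca (chromosome 11, 84129672 to 84401651), the cytosolic form whose malonyl-CoA feeds synthesis, was at 8.78, 13.23 and 9.31 FPKM in mutant livers and 10.40, 9.97 and 9.69 FPKM in control livers. Its control livers were the most alike of any of the 10 genes (CV 3.57%, against 23.3% in mutant livers), and mutant liver b alone stood above them. Its log2 fold change of 0.035 had the narrowest interval of the set, -0.40 to 0.47 (0.759-fold to 1.38-fold, adjusted p = 0.933 from limma), and its sign turned negative after median-ratio scaling of the libraries and after quantile normalization. Without mutant liver b it was the 1 gene of the 10 with all mutant livers below all control livers, against 6.07% of all genes in that comparison. Acacb (chromosome 5, 114146535 to 114250761), the mitochondrial-membrane form whose malonyl-CoA restrains fatty acid oxidation, was at 6.89, 5.79 and 3.06 FPKM in mutant livers and 4.78, 3.17 and 3.53 FPKM in control livers. Mutant livers a and b were above every control and mutant liver c below every control, and the log2 fold change was 0.39 (-0.37 to 1.15, adjusted p = 0.543 from limma). Without mutant liver c it was the 1 gene of the 10 above all controls, against 27.6% of all genes. The ratio of Acacb to Acaca was 0.785, 0.438 and 0.329 in mutant livers and 0.460, 0.318 and 0.364 in control livers, a log2 difference of 0.35 (two-sided exact permutation p = 0.6, adjusted p = 1).

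Fasn (chromosome 11, 120805846 to 120824547), whose promoter is printed above, was at 38.44, 68.52 and 44.55 FPKM in mutant livers and 50.79, 62.73 and 39.26 FPKM in control livers. The means were 50.5 ± 15.9 FPKM in mutant livers and 50.9 ± 11.7 FPKM in control livers (SD, n = 3 each), and the log2 fold change was -0.031 (-0.64 to 0.58, adjusted p = 0.959 from limma). Its interval, 0.643-fold to 1.49-fold, leaves differences of that size possible in either direction. Me1 (chromosome 9, 86581371 to 86695953), the NADPH-yielding malic enzyme, was at 37.59, 21.25 and 30.30 FPKM in mutant livers and 25.56, 30.61 and 25.25 FPKM in control livers. Mutant livers held both its highest and its lowest value, and the log2 fold change of 0.097 (-0.42 to 0.61, adjusted p = 0.829 from limma) turned negative under the same scalings.

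Elovl6 (chromosome 3, 129532355 to 129638495), which elongates palmitate, was at 11.16, 11.92 and 8.29 FPKM in mutant livers and 9.23, 8.96 and 13.59 FPKM in control livers. Control liver c was the highest for it, as for Mlxipl, and the log2 fold change was -0.0091 (-0.53 to 0.51, adjusted p = 0.987 from limma). Scd1 (chromosome 19, 44394455 to 44407879), the delta-9 desaturase that makes oleate and palmitoleate, was the most abundant of the 10. It was at 387.43, 1285.76 and 284.09 FPKM in mutant livers, against 710.46, 786.78 and 311.42 FPKM in control livers. Mutant liver b was the highest and mutant liver c the lowest, 4.53 times apart, so the mutant range enclosed the control range. The mean was higher in mutant livers (652 ± 551 FPKM, against 603 ± 255 FPKM in control livers, SD, n = 3 each), while the log2 fold change was -0.10 (-1.5 to 1.3, adjusted p = 0.943 from limma). The 2 summaries differ in sign, and the interval of 0.355-fold to 2.46-fold is the widest of the 10.

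**Figure D2:**
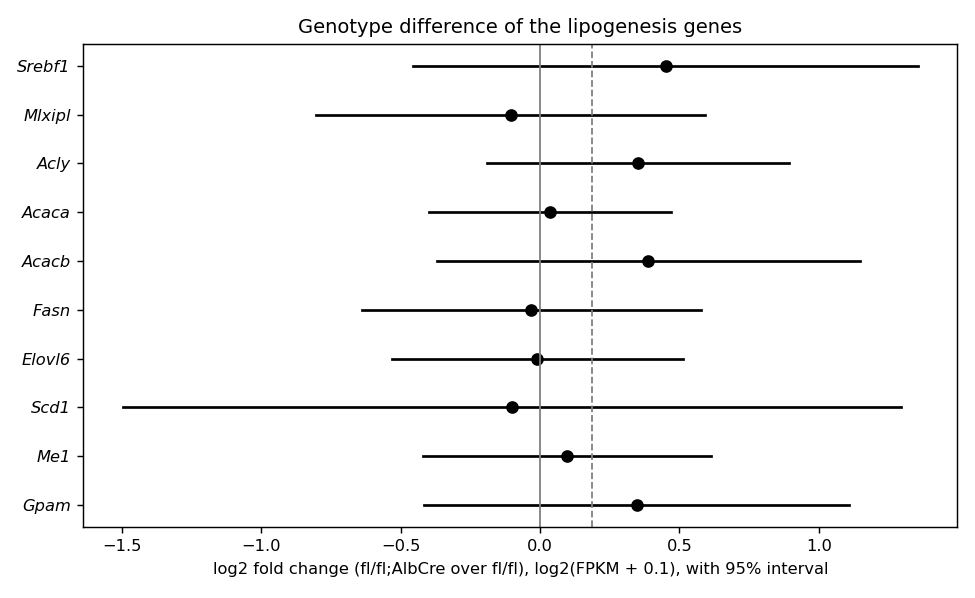
Log2 fold change of each lipogenesis gene, Chrna2fl/fl;AlbCre over Chrna2fl/fl, with its 95% interval from limma (n = 3 livers each); the solid vertical line is 0 and the dashed one the median of all genes tested, 0.19. All 10 intervals include both lines, from Acaca (-0.40 to 0.47) to Scd1 (-1.5 to 1.3).

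Livers of 1 genotype differed more from each other in 9 of these 10 genes than in most genes tested. The SD within genotypes on the log2 scale was 0.96 for Scd1, above that of 93.1% of all genes tested, 0.61 for Srebf1 (83.3%), 0.51 for Gpam (76.8%), 0.48 for Acacb (74.8%) and 0.46 for Mlxipl (73.5%), and 9 of the 10 lay above the median SD of all genes, 0.28. Of these 9, Fasn (66.4%), Acly (60%), Me1 (56%) and Elovl6 (54.8%) lay nearer the middle of all genes. Acaca lay below the median, with 0.23 (38.1%). The highest liver was 1.51 to 2.93 times the lowest for the 9 genes other than Scd1.

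The genes did not share 1 order of livers. Mutant liver b was the highest for Srebf1, Fasn, Acaca and Scd1, mutant liver a for Acacb and Me1, control liver b for Acly and Gpam, and control liver c for Mlxipl and Elovl6. Mutant livers a, b and c were above the gene's log2 mean over all 6 livers for 7, 8 and 2 of the 10 genes, and control livers a, b and c for 4, 6 and 2. Mutant liver c and control liver c were thus low for most of the program, and liver b of each genotype was high for most. The FPKM of the 10 genes summed to 901.5, 1860 and 660.9 in mutant livers and 1054, 1311 and 765.2 in control livers. Scd1 made up 43.0%, 69.1% and 43.0% of that sum in mutant livers and 67.4%, 60% and 40.7% in control livers. Without it the sums were 514.1, 574.5 and 376.8 FPKM in mutant livers and 343.8, 524.6 and 453.8 FPKM in control livers, and these ranges overlapped too.

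**Figure D3:**
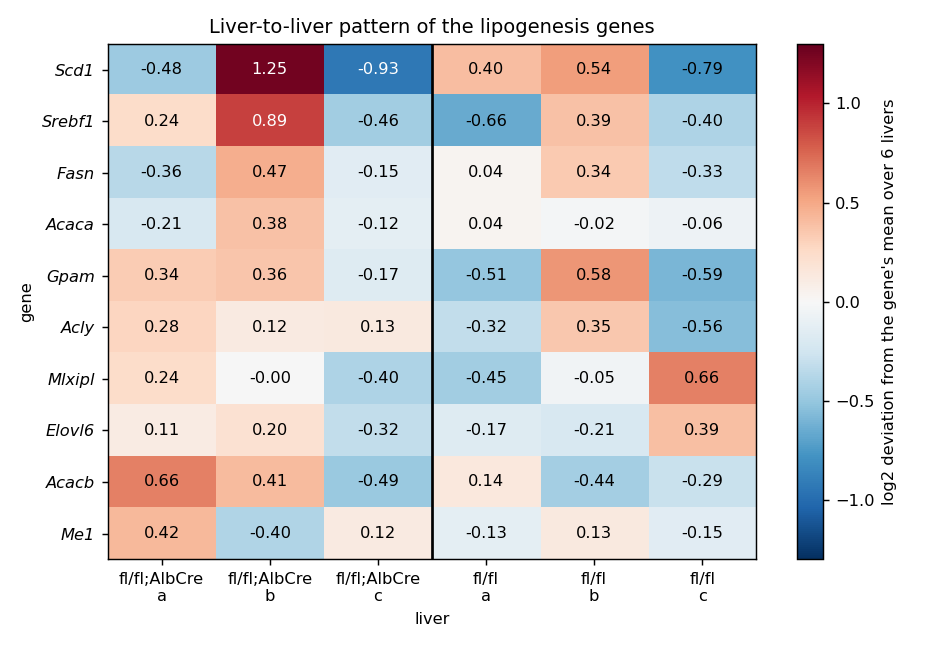
Log2 deviation of each lipogenesis gene (rows) from its own mean over the 6 livers (columns), Chrna2fl/fl;AlbCre livers left of the black line and Chrna2fl/fl livers right of it; red is above and blue below the mean. Mutant liver b is red for 8 genes, mutant liver c and control liver c for 2 each, and Mlxipl and Elovl6 stand out in control liver c.

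Ratios within a library set the later steps against Fasn. Scd1 was 10.1, 18.8 and 6.38 times Fasn in mutant livers and 14.0, 12.5 and 7.93 times in control livers (log2 difference -0.069, two-sided exact permutation p = 1). Elovl6 was 0.290, 0.174 and 0.186 times Fasn in mutant livers and 0.182, 0.143 and 0.346 times in control livers (0.022, exact permutation p = 0.9). Gpam was 1.48, 0.842 and 0.898 times Fasn in mutant livers and 0.623, 1.07 and 0.761 times in control livers (0.38, exact permutation p = 0.4). After adjustment over the 5 ratios every p was 1.

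Around these 10 genes, 11 lists of upstream regulators, substrate suppliers and downstream enzymes held 129 further genes, of which 126 were tested. None passed an adjusted p under 0.05 (smallest 0.255 from limma), while before adjustment 8 genes that were higher (6.35%, against 13.2% of all genes) and 4 that were lower (3.17%, against 3.02%) had a p under 0.05. In 13 of the 126 (10.3%) every mutant liver was above every control liver, against 18.7% of all genes, and in 5 (4.0%) every mutant liver was below, against 4.34%. Their median log2 fold change was 0.093. The genes named next were chosen by a fixed rule, so they are not a random draw of their lists. Counts of genes above or below all controls in each list stand against the same 18.7% and 4.34% of all genes.

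The processing of SREBPs and their partner factors were represented by 14 genes. Of these, 1 lay above all controls, against 18.7% of all genes, and none below, against 4.34%. Scap, the sterol-sensing escort of SREBPs, was at 32.12, 33.82 and 25.63 FPKM in mutant livers and 36.62, 23.03 and 33.00 FPKM in control livers (log2 fold change 0.00013). Insig1 and Insig2, which retain SREBPs in the endoplasmic reticulum, had log2 fold changes of 0.35 and 0.46 with overlapping livers (71.28 to 98.88 FPKM in mutant livers and 39.78 to 103.36 FPKM in control livers for Insig1, 90.34 to 149.27 FPKM in mutant livers and 45.97 to 168.39 FPKM in control livers for Insig2). Srebf2, the gene of the cholesterol-directed SREBP-2, was at 15.27 to 18.17 FPKM in mutant livers and 11.56 to 19.95 FPKM in control livers (0.064). Nfya, a subunit of NF-Y, the factor that reads CCAAT, was the 1 gene that did not overlap, at 5.40, 6.71 and 5.32 FPKM in mutant livers and 4.61, 5.24 and 4.89 FPKM in control livers (0.23, adjusted p = 0.485 from limma, and 0.050 after median-ratio scaling). Among 14 cholesterol genes that SREBP-2 controls, Fdps, the most abundant, was at 122.65 to 340.51 FPKM in mutant livers and 58.70 to 190.66 FPKM in control livers (0.77).

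Of 11 nuclear receptor genes upstream, Nr1h2 (LXRβ) lay above and Nr1i3 (the constitutive androstane receptor, CAR) below all controls. Nr1i3 was at 28.20, 31.39 and 42.00 FPKM in mutant livers, against 87.35, 45.51 and 78.83 FPKM in control livers, a log2 fold change of -1.02 (-1.66 to -0.38, adjusted p = 0.255 from limma). Nr1h2 was at 21.29, 21.34 and 21.89 FPKM in mutant livers and 20.62, 18.74 and 20.42 FPKM in control livers (0.11, below 0 after median-ratio or quantile scaling). Nr1h3 (LXRα), which induces Srebf1 in liver, was at 50.13 to 66.27 FPKM in mutant livers and 57.08 to 64.20 FPKM in control livers (-0.016), and Hnf4a, the most abundant of the list, at 117.55 to 128.26 FPKM in mutant livers and 112.13 to 144.44 FPKM in control livers (-0.034). None of 8 LXR targets outside lipogenesis was free of overlap. Their log2 fold changes were positive for 7 of the 8, against 70.3% of all genes, and reached 0.70. The median was 0.16, against 0.19 for all genes, and Lpcat3, the most abundant, was the 1 below 0, at -0.095.

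Of 12 genes of carbohydrate sensing, 1 lay above and 1 below all controls, against 18.7% and 4.34% of all genes. Mlx, the dimer partner of ChREBP, was above all controls at 28.46, 35.65 and 25.65 FPKM in mutant livers, against 21.60, 24.87 and 23.13 FPKM in control livers (0.35, -0.018 to 0.73, adjusted p = 0.322 from limma). Khk, the ketohexokinase that commits fructose to metabolism, was below all controls at 227.91, 236.63 and 173.38 FPKM in mutant livers, against 307.98, 287.09 and 291.16 FPKM in control livers (-0.49, -0.84 to -0.13, adjusted p = 0.256). Pklr, a ChREBP target and the liver pyruvate kinase, was at 59.58 to 66.85 FPKM in mutant livers and 64.89 to 97.05 FPKM in control livers (-0.27). Glucose-using enzymes are zonated within the liver lobule. Beside these values, the summed FPKM of 7 pericentral hepatocyte markers was 1129, 855 and 791.2 in mutant livers, against 2798, 1672 and 4373 in control livers. Cyp2e1 was the largest part of the control sums, at 569.53, 343.19 and 291.93 FPKM in mutant livers and 1890.26, 847.75 and 3363.77 FPKM in control livers. Of the 6 tested markers, 4 lay below all controls (Cyp2e1, Cyp1a2, Rgn and Cyp27a1), against 4.34% of all genes, while Glul (-0.23) and Oat (0.070) overlapped. The summed FPKM of 7 periportal markers was 2887 to 3966 in mutant livers and 4835 to 5083 in control livers, with 3 of 7 below all controls. The part of zonation in the values above was not tested.

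In insulin and mTORC1 signalling, 3 of 18 genes lay above all controls, against 18.7% of all genes. Akt1 was at 26.03, 27.88 and 26.92 FPKM in mutant livers, against 22.54, 19.05 and 24.20 FPKM in control livers (0.30, adjusted p = 0.324 from limma, and 0.12 after median-ratio scaling). The others were Rheb (0.22, but 0.037 after median-ratio scaling) and Gsk3a (0.11, below 0 after median-ratio or quantile scaling). Igfbp1, which insulin represses in liver, was at 73.05, 82.04 and 118.95 FPKM in mutant livers and 42.76, 73.74 and 23.83 FPKM in control livers, and overlapped only through mutant liver a and control liver b (1.08, 0.15 to 2.01, adjusted p = 0.284 from limma). AMPK, the kinase that inhibits both acetyl-CoA carboxylases, was represented by 7 genes. Its catalytic subunits Prkaa1 (0.40) and Prkaa2 (0.090) and the upstream kinase Stk11 (-0.025) overlapped, and Prkag1 was above all controls by a small margin, at 22.44 to 23.35 FPKM in mutant livers and 14.83 to 22.06 FPKM in control livers (0.25, and 0.064 after median-ratio scaling).

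Of 12 suppliers of citrate, acetyl-CoA and NADPH, 2 lay above and 1 below all controls, against 18.7% and 4.34% of all genes. Acss2, which makes acetyl-CoA from acetate and is an alternative to Acly, was below all controls at 23.48, 16.93 and 20.06 FPKM in mutant livers, against 36.18, 29.09 and 24.11 FPKM in control livers (-0.55, -1.01 to -0.094, adjusted p = 0.278 from limma). G6pdx and Pgd, the NADPH-yielding enzymes of the pentose phosphate pathway, were both above all controls. Pgd was at 49.56, 44.71 and 47.16 FPKM in mutant livers and 31.26, 40.41 and 15.61 FPKM in control livers (0.80, 0.040 to 1.56, adjusted p = 0.295), and G6pdx at 3.51, 4.6 and 3.75 FPKM in mutant livers and 3.02, 3.17 and 1.64 FPKM in control livers (0.63, adjusted p = 0.324). Slc25a1, the mitochondrial citrate carrier, was at 119.97 to 161.57 FPKM in mutant livers and 113.79 to 154.46 FPKM in control livers (-0.012), and Mdh1, the most abundant of them, had a log2 fold change of -0.24. Macrophages and other non-parenchymal cells also use the pentose phosphate pathway. The summed FPKM of 7 macrophage markers was 311.1, 670.7 and 394.8 in mutant livers and 290.5, 368.8 and 213.4 in control livers. That of 7 myofibroblast markers was 243.1, 269.9 and 117.1 in mutant livers and 73.28, 187.4 and 30.25 in control livers. Above all controls lay 3 of 7 myofibroblast markers and none of the macrophage markers, against 18.7% of all genes. In bulk liver, more cells of a type and more RNA per cell cannot be told apart, and the part of these cells in the values of Pgd and G6pdx was not tested.

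Among 9 lipogenic cofactors, Thrsp (Spot 14), a target of SREBP-1c, ChREBP and thyroid hormone, was at 175.72, 200.73 and 30.31 FPKM in mutant livers and 57.58, 158.30 and 73.35 FPKM in control livers (0.23, -1.5 to 1.95). Its highest 3 livers, mutant livers a and b and control liver b, were also the highest 3 for Srebf1. Mid1ip1, which activates Acaca protein, overlapped (0.48). Acsl5, an acyl-CoA synthetase of liver, was above all controls at 241.78, 288.68 and 232.41 FPKM in mutant livers, against 198.52, 217.38 and 121.94 FPKM in control livers (0.54, adjusted p = 0.308 from limma). Mlycd, which degrades malonyl-CoA, was below all controls at 38.40, 36.44 and 36.88 FPKM in mutant livers, against 43.73, 40.92 and 59.50 FPKM in control livers (-0.35, adjusted p = 0.336).

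Of 11 further desaturases and elongases, 2 lay above all controls, against 18.7% of all genes. Fads2, the delta-6 desaturase of polyunsaturated fatty acids, was at 327.62, 319.44 and 319.19 FPKM in mutant livers, against 151.86, 282.46 and 207.13 FPKM in control livers (0.64, 0.12 to 1.15, adjusted p = 0.272 from limma). Elovl1, an elongase of very long chains, was at 31.89, 31.67 and 35.14 FPKM in mutant livers and 24.47, 24.52 and 21.76 FPKM in control livers (0.48, 0.19 to 0.77, adjusted p = 0.255). Elovl5, an elongase of polyunsaturated fatty acids, had a log2 fold change of -0.13. Scd2, the desaturase paralog of Scd1, was low at 2.20, 4.28 and 3.12 FPKM in mutant livers and 2.38, 3.67 and 0.61 FPKM in control livers (0.76, -0.65 to 2.17), and RSEM divides reads that paralogs share by an estimate.

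Other genes of triglyceride and related glycerolipid synthesis numbered 13, of which 10 were tested. Among these 10, 2 had a positive log2 fold change, against 70.3% of all genes, and the median was -0.16, against 0.19 for all genes. Agpat3, an acyltransferase, was below all controls at 136.39 to 150.65 FPKM in mutant livers, against 153.18 to 166.70 FPKM in control livers (-0.15). Dgat2, which esterifies newly made fatty acids, was at 121.00, 93.83 and 94.51 FPKM in mutant livers and 145.84, 114.79 and 145.58 FPKM in control livers (-0.39, -0.77 to -0.014, adjusted p = 0.299 from limma). Dgat1 (-0.20) and the phosphatidate phosphatase Lpin1 (-0.64, -1.36 to 0.085) overlapped. Pnpla3, a lipid droplet protein and SREBP-1c target, was under the filter on low values at 0.00, 0.74 and 0.20 FPKM in mutant livers and 0.05, 0.39 and 0.05 FPKM in control livers.

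**Figure D4:**
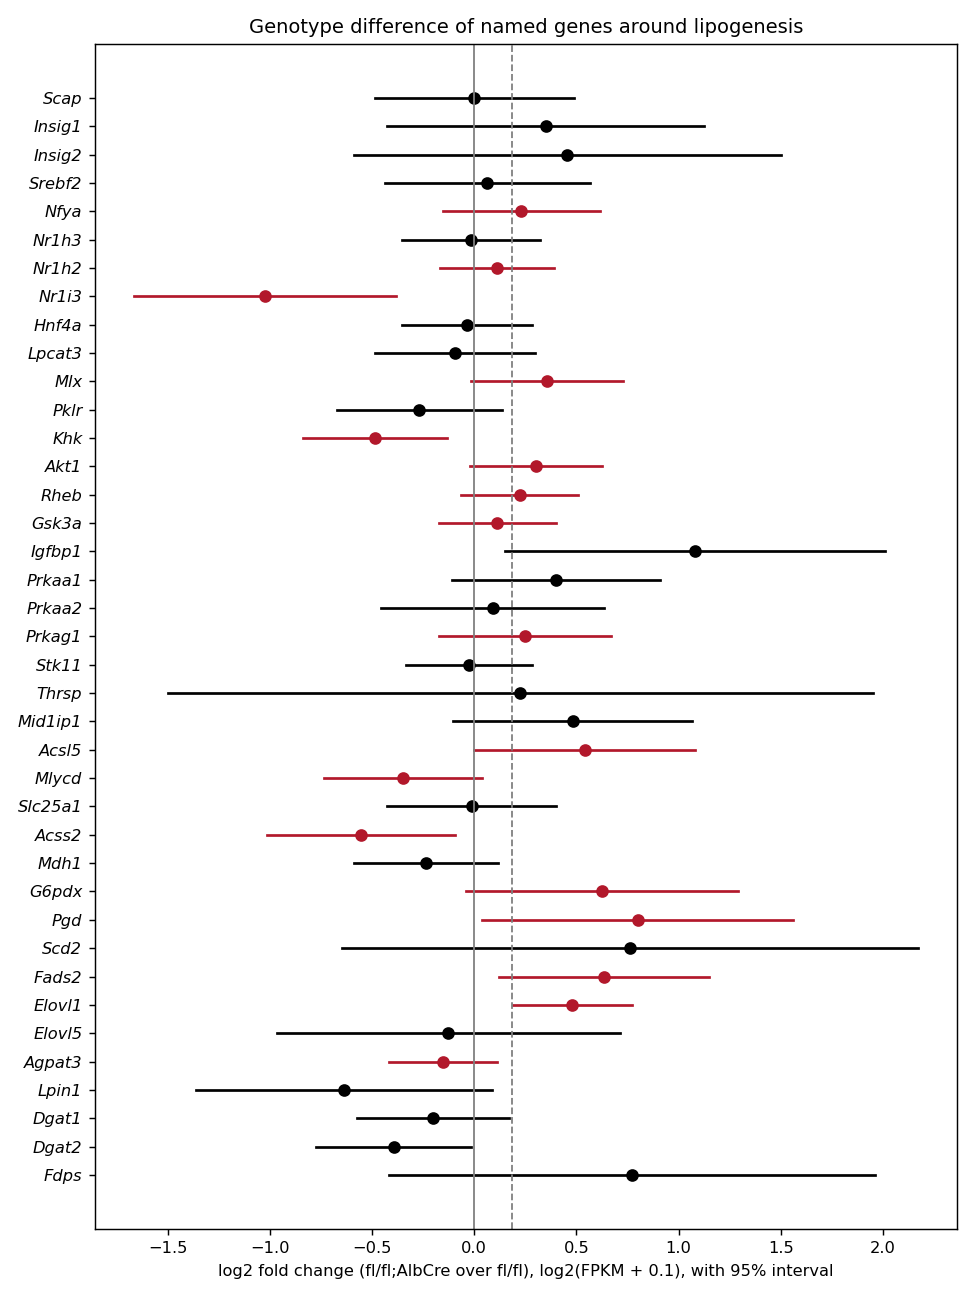
Log2 fold change (Chrna2fl/fl;AlbCre over Chrna2fl/fl) with 95% interval from limma for the 39 named genes of the lists around lipogenesis that were tested, in list order from SREBP processing at the top to cholesterol genes at the bottom (n = 3 livers each). Red marks genes whose 3 mutant livers all lie on 1 side of the 3 control livers, the solid line is 0 and the dashed line the median of all genes, 0.19; intervals leave out 0 for Nr1i3, Khk, Acss2 and Dgat2 on the left and for Igfbp1, Pgd, Fads2, Elovl1 and, barely, Acsl5 on the right.

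Adipose tissue, the other main site of these enzymes, left little trace in the samples. Adipoq, Lep and Cfd were listed at 0 in all 6 livers, Plin1 and Retn did not exceed 0.07 FPKM, and Cidea was at 0.25 to 0.39 FPKM in mutant livers and 0.00 to 0.35 FPKM in control livers. Cd36, which liver and macrophages also express, was at 34.39, 34.61 and 20.23 FPKM in mutant livers and 14.45, 22.37 and 6.27 FPKM in control livers. Markers of other non-parenchymal cells summed to 95.84 to 200.4 FPKM in mutant livers and 45.29 to 163.1 FPKM in control livers for stellate cells, and to 64.54 to 104.3 FPKM in mutant livers and 41.47 to 66.78 FPKM in control livers for sinusoidal endothelium. Exons of 4 of the 10 genes overlap exons of other annotated genes, by at most 235 bases (Mlxipl with Gm43500 on the opposite strand), and those of Mlxipl, Elovl6 and Me1 lie on the opposite strand only. Strand separates such reads in directional libraries if the counting used it, which is not given in the sources used here. Srebf1 also overlaps Mir6922 on its own strand, by 66 bases.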

How the data were processed

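Liver RNA of 3 Chrna2fl/fl;AlbCre and 3 Chrna2fl/fl mice was sequenced as directional poly(A) libraries. The authors trimmed reads with cutadapt 2.3, checked them with FastQC 0.11.8 and MultiQC 1.7, aligned them to GRCm38 with STAR 2.7.8a and deposited gene FPKM from RSEM 1.3.3. Tools and versions follow the submitters' processing notes.

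FPKM values were compared with limma 3.58.1 in R 4.3.3 (eBayes with a trend) on log2(FPKM + 0.1) for the 13943 genes that averaged 0.5 FPKM or more. P-values were adjusted by Benjamini-Hochberg and called under 0.05. The pipeline was tested on simulated data with independent noise and no difference of depth between genotypes. That test does not cover the depth difference of these libraries. Intervals of fold changes are 95%, and no interval of single values was computed. Depth came from the spacing between low FPKM of transcripts of 600 to 2500 nt, of which 87.8% to 90.9% were whole fragments within 0.15. Positions came from an annotation of GRCm38 and promoters from RefSeq. P-values of limma set each difference of means against the spread of livers within genotypes, moderated by a trend over all genes tested. They cannot separate genotype from a batch of sequencing.

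The 10 genes and the lists were chosen with earlier results of these data known. The rule names all 10, from each list the genes without overlap (up to 4) and the most abundant, and 20 others whatever their values. The results of 3 genes that it names are not reported here. Tf, 1 hepatocyte marker, had no match by symbol. Alternatives were pseudocounts of 1 and 0.01, no filter, a mean of at least 5 FPKM, 3 rescalings, limma with array weights or without its trend, each liver left out and the replicate letter as a block.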

Additional observations from a re-analysis of the deposited data

How the results depend on the processing

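With 3 livers per genotype the data bound, rather than settle, differences of the 10 genes: none was called under any of the 16 alternatives run (15 for Acacb, which a mean of at least 5 FPKM left out), and their adjusted p lay between 0.0793 and 0.9996. Their median log2 fold change was 0.066 as reported, 0.066 with the replicate block, -0.12 after median-ratio scaling, -0.082 after quantile normalization, 0.17 with array weights, and 0.0032 to 0.24 with 1 liver left out. The letters a, b and c are not stated to pair livers. Deviations of livers with the same letter were hardly correlated (-0.019, 0.055 and 0.016), which cannot settle whether they were matched. The replicate block called none of the 10. The number of the 10 genes above every control liver was 0 to 2 with 1 liver left out (1 without mutant liver c, Acacb, and 2 without control liver b, Acly and Gpam), and the number below was 0 to 1 (1 without mutant liver b, Acaca). Over all genes, 2606 lay above and 605 below all controls, but 1317 and 1439 after median-ratio scaling.

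Directions turned for some genes, none of them called, and the cause was not tested. With a pseudocount of 1, Scap was at -4e-04. Median-ratio scaling gave -0.15 for Acaca, -0.087 for Me1, -0.18 for Scap, -0.12 for Srebf2, -0.074 for Nr1h2, -0.073 for Gsk3a and -0.093 for Prkaa2. Quantile normalization gave -0.15 for Acaca, -0.045 for Me1, -0.13 for Scap, -0.098 for Srebf2, -0.041 for Nr1h2, -0.038 for Gsk3a and -0.10 for Prkaa2. Array weights gave 0.21 for Mlxipl, 0.13 for Elovl6, -0.12 for Scap, -0.15 for Srebf2, 0.039 for Nr1h3 and 0.041 for Hnf4a. With 1 liver left out, the log2 fold change ranged over -0.091 to 0.32 for Me1, -0.27 to 0.14 for Fasn, -0.36 to 0.20 for Mlxipl, -0.12 to 0.18 for Elovl6, -0.75 to 0.34 for Scd1, -0.20 to 0.14 for Scap, -0.15 to 0.24 for Srebf2, -0.15 to 0.15 for Acaca, -0.020 to 0.67 for Insig1, -0.015 to 0.92 for Insig2, -0.10 to 0.098 for Nr1h3, -0.11 to 0.073 for Hnf4a, -0.19 to 0.024 for Lpcat3, -0.075 to 0.29 for Prkaa2, -0.10 to 0.052 for Stk11, -0.26 to 1.1 for Thrsp, -0.15 to 0.091 for Slc25a1 and -0.41 to 0.18 for Elovl5. Without a turn, it ranged over 0.12 to 0.79 for Srebf1, 0.16 to 0.73 for Acacb, 0.16 to 0.61 for Acly and 0.14 to 0.72 for Gpam. These 4 are among the 30 of 50 named genes that kept their direction under every alternative that gave them a value.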
